A study of Bos taurus with 12 samples.

Results

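The miRNAs bta-miR-143 and bta-miR-145 were followed in granulosa cells, the somatic cells that line the ovarian follicle and nurse the oocyte. These 2 miRNAs were taken by their mature names from the read counts, which cover 755 mature bovine miRNA names, and each of the 2 had 1 precursor entry (bta-mir-143 and bta-mir-145). The cells came from Simmental heifers, all of which had been synchronized with a prostaglandin analogue and a GnRH analogue before they were slaughtered on day 3 or day 7 of the cycle. On each day follicles were sorted by diameter into subordinate (SF) and dominant follicles (DF), which gave 4 groups, and 3 small RNA libraries were made per group, 12 in all. The diameter limits differed between the days, with higher limits at day 7 for both classes. Day and follicle size can therefore not be told apart in comparisons that involve both days. The fluid of follicles of a size class was pooled and the granulosa cells were collected from it by centrifugation, with no sort by a marker. Dominant follicles of day 7 were few, no more than the group has libraries, so that a library of that group may stand for a single follicle, whereas the other groups had more follicles than libraries. Different heifers were used on the 2 days. The submitters call the libraries biological replicates without tying them to animals. The p values therefore weigh group differences against the spread between these libraries, which may not be the spread between animals.

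The genes of miR-143 and miR-145 lie next to each other in mammals and are transcribed as one primary transcript that is cut into 2 hairpins. In the RefSeq gene table of the assembly ARS-UCD2.0, which is not the build the counts were made on, MIR143 and MIR145 were direct neighbours, between IL17B and CSNK1A1, and both overlapped the long non-coding RNA gene LOC132345768. The pair is best known from smooth muscle, where serum response factor and myocardin drive its transcription and where it favours the contractile over the proliferating state, in part through repression of KLF4 and ELK1. The 2 mature miRNAs have different seeds and thus different targets. The activin receptor gene ACVR1B has been described as a target of miR-145 in granulosa cells of mice. Fibroblasts and other mesenchymal cells carry high levels of both.

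Each library held 160418 to 405129 reads on known miRNAs, and the lowest total was that of replicate 2 of DF at day 7. The smallest share that 3 reads could show was between 0.000741% and 0.00187% of a library, which covers counting error only, since copies of a molecule made by PCR were not told apart. The DF libraries of day 7 stood apart from the other 9. In all of them bta-miR-202, a miRNA of the gonad, was lowest (364 to 976 normalized counts against 2213 to 3673 elsewhere), and the summed leukocyte miRNAs (miR-142-3p, miR-142-5p, miR-150 and miR-223) were highest (783 to 8636 against 108 to 705). Here a normalized count is the number of reads divided by the median-of-ratios size factor of the library over all 12 libraries. Fewer cells of a type and less of a miRNA per cell cannot be told apart in such bulk samples.

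Of the 2 miRNAs, bta-miR-143 was among the abundant ones. It held between 0.805% (95% Wilson interval 0.776% to 0.835%) and 4.73% (4.65% to 4.80%) of a library and ranked between 5 and 19 among all miRNAs of a library. For bta-miR-145 the share was between 0.0281% (0.0227% to 0.0348%) and 0.105% (0.0943% to 0.117%), with ranks between 72 and 111. The highest rank of either was in DF replicate 3 at day 7. In that group bta-miR-143 made up 3.60% ± 1.15 of the reads (SD, n = 3), against 1.12% ± 0.37 in DF at day 3, 1.55% ± 0.25 in SF at day 3 and 1.30% ± 0.31 in SF at day 7.

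In normalized counts, bta-miR-143 had 4757, 3581 and 3926 in replicates 1, 2 and 3 of SF at day 3 (mean 4088 ± 604, SD, n = 3). In DF of the same day the replicates had 2112, 3793 and 2338 (mean 2748 ± 913). At day 7 the SF replicates had 2793, 4701 and 3836 (mean 3777 ± 955), and the DF replicates 9633, 6474 and 13883 (mean 9997 ± 3718). The 3 DF libraries of day 7 lay above each of the other 9, while the ranges of the remaining groups overlapped. DF at day 3 had the lowest mean.

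The replicates of bta-miR-145 had 136, 113 and 191 normalized counts in SF at day 3 (mean 147 ± 39.8, SD, n = 3) and 93.9, 101 and 75.2 in DF at day 3 (mean 90.0 ± 13.3). At day 7 they had 75.7, 207 and 136 in SF (mean 139.8 ± 65.9) and 259, 249.5 and 308 in DF (mean 272 ± 31.2). Again all DF libraries of day 7 were above all others, and at day 3 all DF libraries were below all SF libraries. The coefficient of variation was lowest in DF at day 7 for bta-miR-145 (11.5%), and in SF at day 3 for bta-miR-143 (14.8%). It was highest in SF at day 7 for bta-miR-145 (47.1%), where replicate 2 was high and replicate 1 low.

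**Figure D1:**
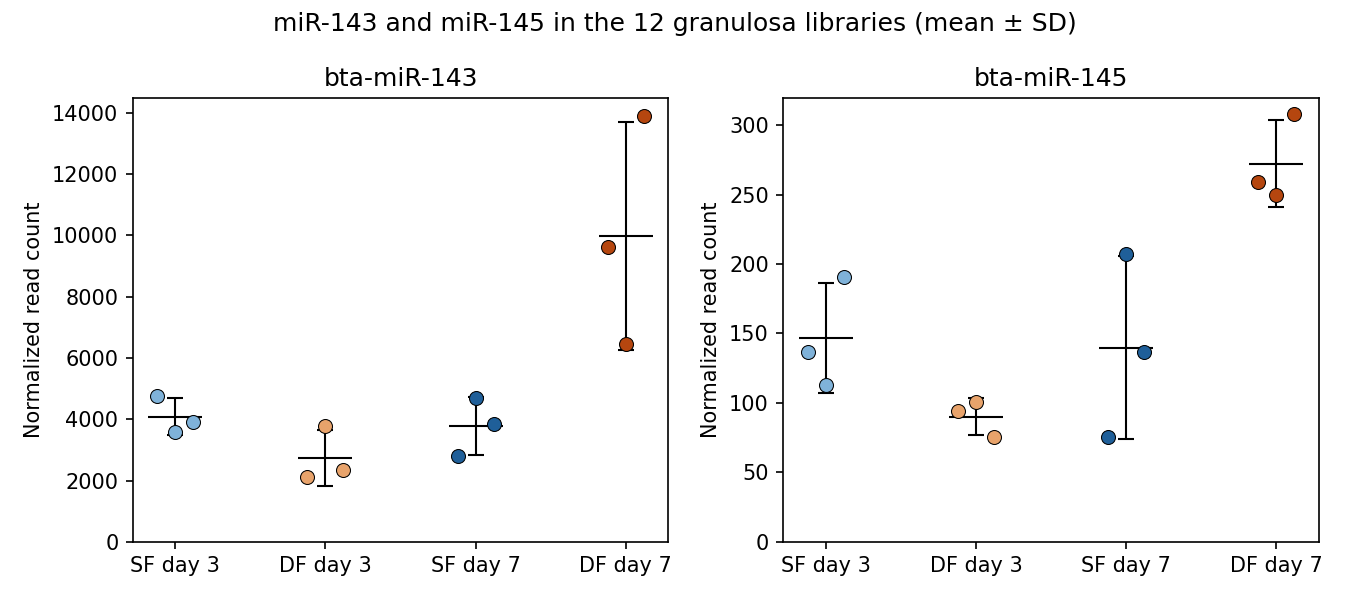
Normalized read count (linear axis from 0) of bta-miR-143 and bta-miR-145 in each of the 12 libraries by group, with replicates 1, 2 and 3 from left to right as points, and the mean ± SD of each group as the bar. The 3 DF libraries of day 7 sit above the other 9 for both miRNAs, at 6474 to 13883 for bta-miR-143 and 249.5 to 308 for bta-miR-145.

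Of the 4 comparisons made in the study, both members differed most in that of DF over time, which was meant to follow the dominant follicle from day 3 to day 7. In DF bta-miR-143 rose 3.57-fold to day 7. The log2 fold change was 1.84, with a 95% interval of 1.23 to 2.45 and a standard error of 0.28 (quasi-likelihood F test of edgeR, p adjusted by Benjamini and Hochberg's method, 0.000117). bta-miR-145 rose 2.97-fold, or by 1.57 on the log2 scale (standard error 0.23, 95% interval 1.08 to 2.07, adjusted p = 7.75e-05, edgeR). Both were differentially expressed (called), for which a log2 fold change of 1 or more in either direction was needed. The other limits of a call were a false discovery rate (FDR) of 10% and an unadjusted p of 0.05 in edgeR. Such calls were common in this comparison, as 40.3% of the 360 miRNAs tested were called, 24.4% of the 360 as higher at day 7. Of all tested miRNAs, 36.4% had a larger change than bta-miR-143 and 42.8% a larger one than bta-miR-145. The normalized counts of the 2 days did not overlap for either member, nor did they for 50.0% of all miRNAs tested. Both calls were kept in each of the 6 fits that left out 1 library, at log2 fold changes of 1.55 to 2.11 for bta-miR-143 and 1.41 to 1.63 for bta-miR-145.

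At day 7, the comparison of SF with DF addresses follicular dominance. bta-miR-143 was 2.49-fold lower in SF than in DF, which is -1.32 on the log2 scale (95% interval -1.97 to -0.66, standard error 0.29, adjusted p = 0.00727, edgeR), and was called, as were 33.4% of the 350 miRNAs tested (18.3% lower in SF). For bta-miR-145 the log2 fold change was -0.88 (standard error 0.35, 95% interval -1.65 to -0.11, adjusted p = 0.0787, edgeR), which passed the FDR threshold (as for 39.7% of all) and not that of the fold change, so that it was not called. Its call turned on single libraries, and without SF replicate 2 it passed (log2 fold change -1.30, adjusted p = 0.0111, edgeR). Leaving out any other single library lost the FDR threshold (adjusted p between 0.14 and 0.181, edgeR). The smallest log2 fold change was -0.56, without SF replicate 1 (adjusted p = 0.16, edgeR). All SF libraries were below all DF libraries for both members, which held in either direction for 45.7% of the miRNAs tested. This comparison and the one over time in DF share the DF libraries of day 7, and are not independent.

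At day 3, when follicles are being recruited and selected, both members were on the other side, with more counts in SF. Set against DF, SF had a log2 fold change of 0.53 for bta-miR-143 (standard error 0.16, 95% interval 0.21 to 0.85, adjusted p = 0.0239, edgeR) and one of 0.65 for bta-miR-145 (standard error 0.20, 95% interval 0.23 to 1.07, adjusted p = 0.0369, edgeR). These are 1.44-fold and 1.57-fold, under the fold threshold, and neither was among the 5.67% of 335 miRNAs called. The FDR threshold was passed by 16.7% of them at any fold change. DF replicate 2 of bta-miR-143, at 3793 normalized counts, lay inside the SF range, whereas for bta-miR-145 the groups did not overlap, as for 27.8% of all. In the fit over all 12 libraries, which takes the spread from all 4 groups, the FDR threshold was passed by neither (adjusted p = 0.327 for bta-miR-143 and 0.309 for bta-miR-145, edgeR), and leaving out single libraries gave adjusted p values up to 0.174 and 0.268.

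In SF no difference between the days was detected. The log2 fold change of day 7 against day 3 was -0.09 for bta-miR-143 (95% interval -0.49 to 0.31, adjusted p = 0.937, edgeR) and -0.04 for bta-miR-145 (95% interval -0.74 to 0.66, adjusted p = 0.971, edgeR). For both, the interval lay within the fold threshold of 1 on either side. The share of all 337 miRNAs called was 0.593% in this comparison.

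By the test of the interaction, the gap between subordinate and dominant follicles was not the same on the 2 days for either member. The log2 difference of SF against DF at day 7 less that at day 3 was -1.98 for bta-miR-143 (standard error 0.38, 95% interval -2.79 to -1.16, adjusted p = 0.000957, edgeR) and -1.66 for bta-miR-145 (standard error 0.43, 95% interval -2.57 to -0.76, adjusted p = 0.00761, edgeR). Among all 378 miRNAs tested over the 12 libraries, 26.5% passed the same thresholds, and 14.3% with the same sign as the members. Without 1 library in turn, the estimate was between -2.27 and -1.67 for bta-miR-143 and between -2.05 and -1.36 for bta-miR-145, and both were called each time.

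The order of the 4 group means was the same for both members, with DF at day 7 highest, followed by SF at day 3, SF at day 7 and DF at day 3. The step from SF at day 3 up to DF at day 7 was a log2 fold change of -1.24 for SF against DF in bta-miR-143 (adjusted p = 0.00176, edgeR), which was called like 34.1% of 352 miRNAs. Without DF replicate 3 of day 7 it was -0.94 and no longer called. In bta-miR-145 the same step was -0.85 (adjusted p = 0.0144, edgeR), under the fold threshold, while 44.9% of all passed the FDR threshold. Without SF replicate 3 of day 3 it was -1.08 and called. The other steps did not pass the thresholds. SF at day 7 was above DF at day 3 by 0.43 on the log2 scale for bta-miR-143 (95% interval -0.11 to 0.98, adjusted p = 0.328, edgeR) and by 0.61 for bta-miR-145 (95% interval -0.15 to 1.36, adjusted p = 0.328, edgeR), a comparison in which 6.12% of miRNAs were called.

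**Figure D2:**
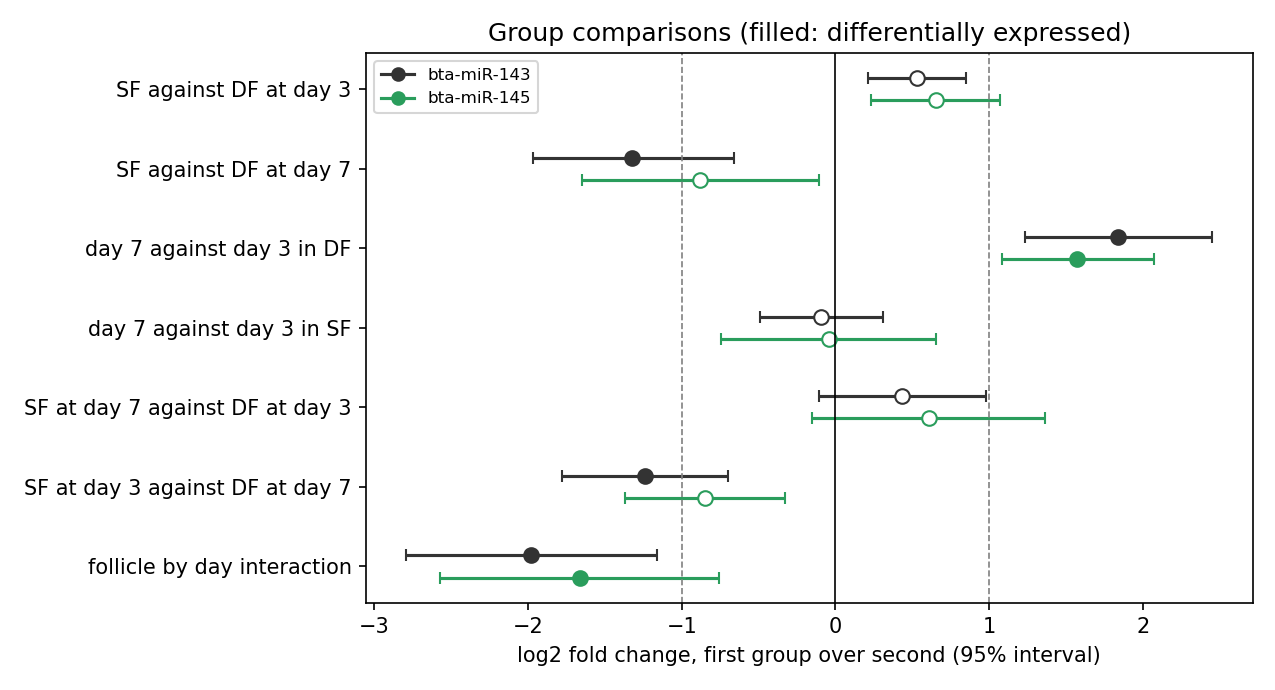
Log2 fold change of the first-named group over the second (x axis) with its 95% interval, for bta-miR-143 and bta-miR-145 in 6 group comparisons and the interaction of follicle and day. Filled points were differentially expressed, the dashed lines mark a log2 fold change of 1 in either direction, and the rise in DF (1.84 and 1.57) and the interaction (-1.98 and -1.66) are the only comparisons with both points filled.

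As both miRNAs are cut from one transcript, their ratio within a library was compared between groups, which needs no scaling between libraries. There were between 20.6 and 45.1 reads of bta-miR-143 for each read of bta-miR-145. A read covers a whole mature miRNA, so that length does not enter, but the ease with which the 2 RNAs are ligated and amplified can differ and was not measured, and the ratio is one of reads. The geometric mean of the ratio at day 3 was 28.3 for SF and 29.7 for DF. At day 7 it was 28.6 for SF and 35.2 for DF. On the log2 scale these are 4.82 ± 0.40, 4.89 ± 0.38, 4.84 ± 0.35 and 5.14 ± 0.40 (SD, n = 3). The difference in the mean log2 ratio was 0.24 for day 7 against day 3 in DF (exact two-sided permutation test, p = 0.5) and -0.30 for SF against DF at day 7 (exact permutation p = 0.4). It was -0.07 for SF against DF at day 3 (exact permutation p = 0.8) and 0.02 for day 7 against day 3 in SF (exact permutation p = 1). All 4 adjusted p values were 1, and with 3 libraries against 3 no such test can go below 0.1. The differences were smaller than the spread between replicates, and the widest spread within a group was from 25.9 to 45.1 in DF at day 7.

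**Figure D3:**
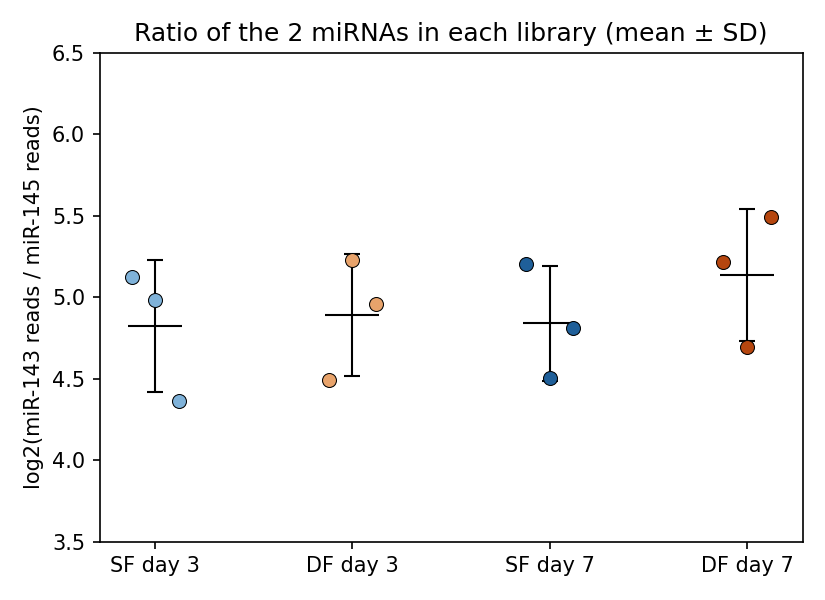
Log2 of the ratio of bta-miR-143 to bta-miR-145 reads in each library (points, replicates 1 to 3 from left to right) with the mean ± SD of each group; the axis does not start at 0. The 4 groups overlap, with means between 4.82 and 5.14.

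In 8 of the 12 libraries both members were above or both were below their own group means on the log2 scale. These were 1 of 3 SF and 2 of 3 DF libraries at day 3, and 3 of 3 SF and 2 of 3 DF libraries at day 7. Deviations within a group of 3 depend on each other, and nothing is read from this count. In SF at day 7, replicate 2 was highest and replicate 1 lowest for both. In DF at day 7, replicate 3 was highest for both and replicate 2 lowest for both.

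Of the 185 other miRNAs with a mean of at least 10 reads, bta-miR-143 was the one whose pattern over the 12 libraries was most like that of bta-miR-145, with a root mean square difference of 0.34 on the log2 scale after each profile was centred on its mean. The median of this measure over all 185 was 0.90. Seen from bta-miR-143, bta-miR-145 came second, after bta-miR-107 with 0.32 and before bta-miR-23b-3p with 0.35, bta-miR-199a-5p with 0.37 and bta-miR-29a with 0.40 (median of all 0.94). miR-107 belongs to a family that is encoded in introns of pantothenate kinase genes. miR-23b-3p is made from one transcript with miR-27b and miR-24, miR-199a-5p is typical of mesenchymal cells, and the miR-29 family represses collagens and other matrix genes. Next after bta-miR-143 for bta-miR-145 were bta-miR-126-3p with 0.36, bta-miR-17-3p with 0.37, bta-miR-32 with 0.44 and bta-miR-29a with 0.45. miR-126 is encoded in an intron of EGFL7 and marks endothelial cells, and miR-17-3p is the minor arm of a hairpin of the miR-17-92 cluster.

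These neighbours were picked for their likeness in these same libraries, so their values are a description. Like both members, all of them had their highest group mean in DF at day 7. Between day 3 and day 7 in DF, bta-miR-107 went from 154 ± 26.1 to 566 ± 292 normalized counts (SD, n = 3), bta-miR-23b-3p from 528 ± 73.3 to 2449 ± 684 and bta-miR-29a from 148 ± 20.1 to 782 ± 90.4. bta-miR-126-3p went from 36.9 ± 11.3 to 78.2 ± 6.38, the smallest fold change among them. At day 3, bta-miR-107 was close to equal in SF and DF, at 161 ± 12.3 and 154 ± 26.1, whereas bta-miR-199a-5p had 236 ± 22.5 in SF and 119 ± 12.5 in DF.

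**Figure D4:**
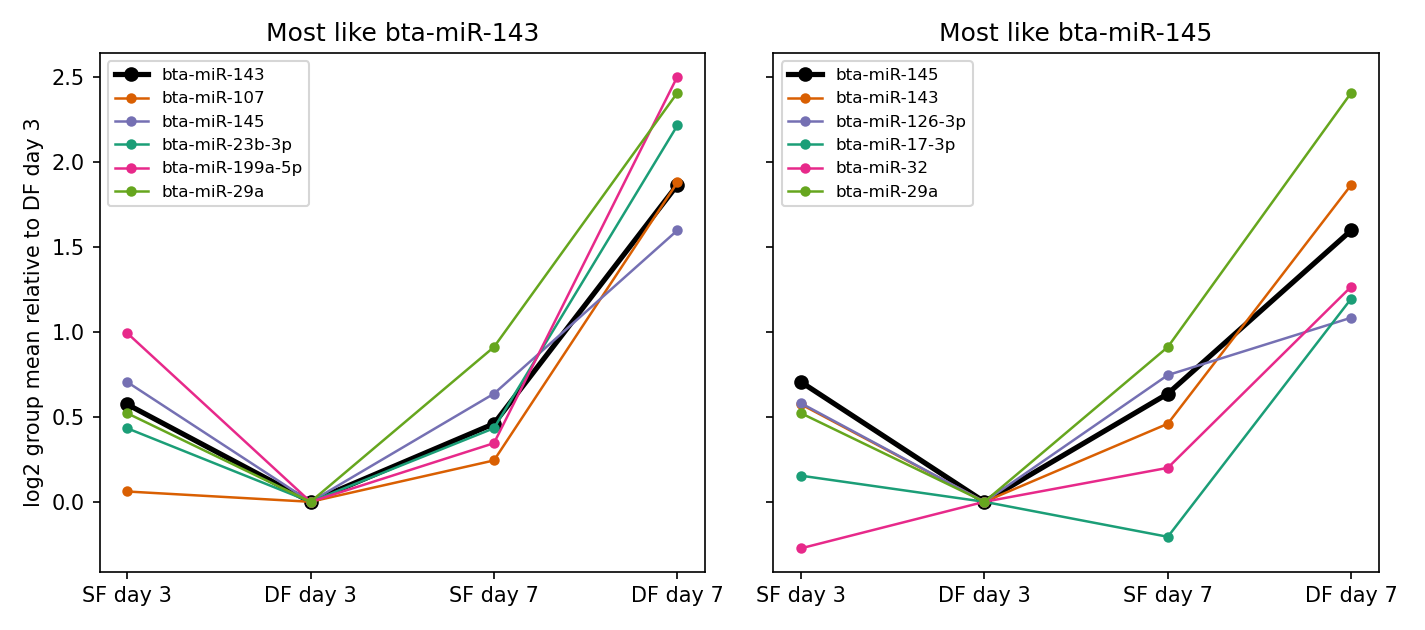
Log2 of the group mean of normalized counts relative to DF at day 3 (y axis) in the 4 groups (x axis), for bta-miR-143 (left) and bta-miR-145 (right) as thick black lines with the 5 miRNAs whose pattern was most like each. Every line has its highest point in DF at day 7. In the left panel bta-miR-29a, bta-miR-199a-5p and bta-miR-23b-3p rise further than bta-miR-143 there, and bta-miR-107 rises about as far.

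Since miR-143 and miR-145 are high in mesenchymal cells, miRNAs known from fibroblasts and from other cells that the fluid could hold were read from the same libraries. No list was one of smooth muscle. The fibroblast and stroma list held 8 miRNAs (bta-miR-199a-3p, bta-miR-199a-5p, bta-miR-199b, bta-miR-199c, bta-miR-214 and bta-miR-29a, bta-miR-29b and bta-miR-29c), of which bta-miR-199a-3p and bta-miR-199c carried nearly the same counts and cannot be told apart. All 8 were higher at day 7 than at day 3 in DF (24.4% of all miRNAs were called in that direction), with a median log2 fold change of 2.58 against 0.05 over all miRNAs tested. In SF against DF at day 7, 7 of 8 were lower (18.3% of all), with a median of -2.26 against -0.05. The exception was bta-miR-29c, with a log2 fold change of -0.92 (adjusted p = 0.383, edgeR). At day 3 bta-miR-214 alone was called, higher in SF (3.88% of all miRNAs were called so), with a log2 fold change of 1.03, and its call was lost without any 1 of the SF libraries or without DF replicate 1. In SF none of the 8 was called between the days, where only 0.593% of all miRNAs were called. The summed level of the list was 862 to 935 normalized counts in SF of day 3 and 704 to 1050 in SF of day 7. In DF it went from 500.5 to 622 on the earlier day to 3816 to 4713 on the later one. In these sums the reads shared by bta-miR-199a-3p and bta-miR-199c count at both. Thus the stroma list moved in the same direction as the members in each comparison in which a member was called, and its median changed more than they did. Its part in the result was not tested.

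The 7 miRNAs of heart and skeletal muscle were near the limit of the depth. bta-miR-206 and bta-miR-208a had no read in any library, and the list summed to 0.977 to 9.77 normalized counts in the 9 other libraries and to 9.98 to 15.3 in DF at day 7. bta-miR-133a, which is made in heart and skeletal muscle, had between 5.13 and 8.999 normalized counts in the DF libraries of day 7 and between 0 and 4.89 elsewhere. It was called higher at day 7 in DF (log2 fold change 3.54, adjusted p = 0.00669, edgeR) and lower in SF than in DF at day 7 (-1.96, adjusted p = 0.0372, edgeR), and the latter call was lost without SF replicate 3.

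Of the endothelial miRNAs, bta-miR-126-3p was called in DF between the days (log2 fold change 1.05, adjusted p = 0.01, edgeR) and bta-miR-126-5p was not (0.48, adjusted p = 0.175, edgeR). The call was lost without DF replicate 3 of day 3 or of day 7. Their sum was 61.6 to 101 normalized counts in DF at day 3 and 130 to 160.2 in DF at day 7. In SF it was 103 to 131 at day 3 and 90.9 to 221 at day 7, so that SF replicate 2 of day 7, the highest SF library of that day for both members, was also the highest of all 12 for endothelial miRNAs. That library also held the most leukocyte miRNAs of the SF libraries, 705 normalized counts against 108 to 220 in the other 5. The part of these miRNAs in the levels of the members in that library was not tested.

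All 4 listed leukocyte miRNAs were called higher at day 7 than at day 3 in DF (24.4% of all miRNAs were called so). Their median log2 fold change was 4.92, against 0.05 over all miRNAs tested. Of the 4, bta-miR-142-3p (0.900 to 6.65 normalized counts) and bta-miR-223 (4.50 to 8.32) had few reads in DF at day 7. Most of the sum there was bta-miR-142-5p, with a mean of 3374 of 4177. Within DF at day 7 the 4 summed to 3110, 8636 and 783 normalized counts in replicates 1, 2 and 3. The library with the most of them, replicate 2, was the lowest of the group for bta-miR-143 (6474) and for bta-miR-145 (249.5). Replicate 3, with the least, was the highest for both. Between the days in DF the gonad miRNA bta-miR-202 went the other way from the members (log2 fold change -2.28, adjusted p = 1.93e-05, edgeR). It had 753, 364 and 976 normalized counts in these replicates against a mean of 3325 ± 302 in DF at day 3 (SD, n = 3). Among these replicates it was lowest in replicate 2 and highest in replicate 3, like the members. The stroma list (4114, 3816 and 4713) and the heart and skeletal muscle list had that order too. The erythrocyte list (1296, 2322 and 808) had the order of the leukocyte list, and the endothelial list had neither. Whether the makeup of the cells differed between the days in DF was not tested.

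**Figure D5:**
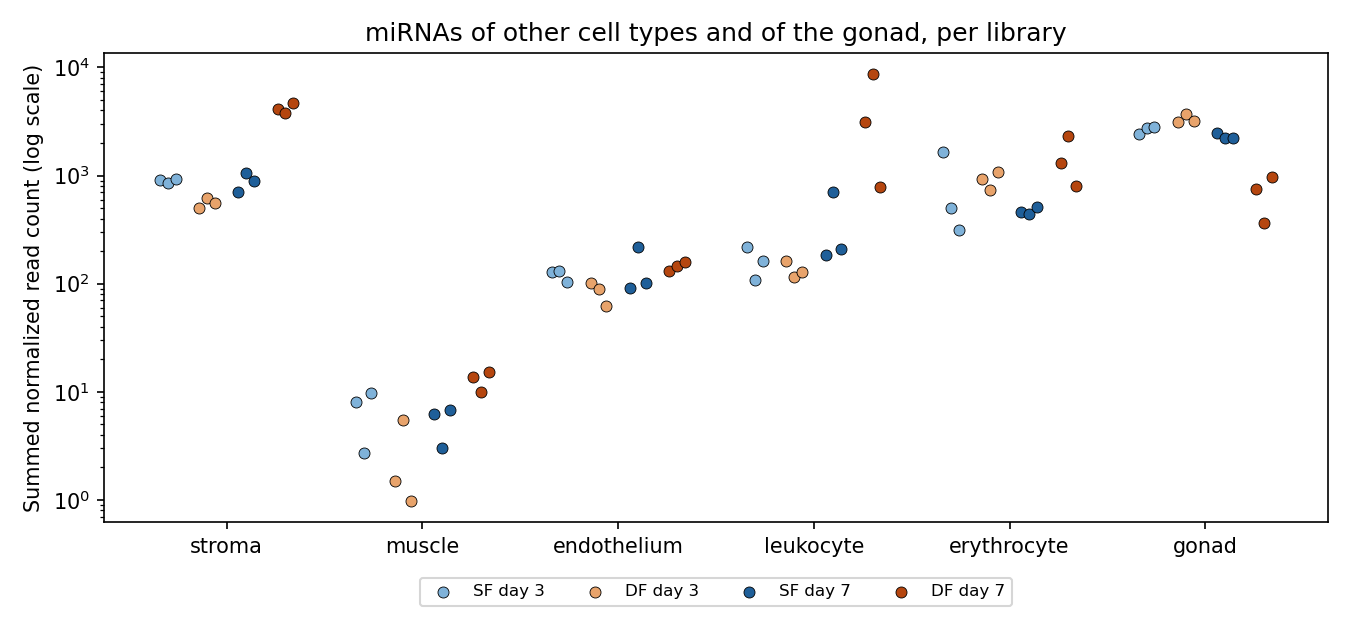
Summed normalized read count of the stroma, heart and skeletal muscle, endothelium, leukocyte, erythrocyte and gonad lists (log axis) in each library, by group. Replicates 1 to 3 run from left to right, and the epithelial list is not drawn. In DF at day 7 the stroma list (3816 to 4713) and the leukocyte list (783 to 8636) are above the other 9 libraries and the gonad miRNA bta-miR-202 (364 to 976) is below them, while the heart and skeletal muscle list does not pass 15.3 in any library.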

How the data were processed

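The 12 small RNA libraries of granulosa cells, 3 per group, were made from cells of follicular fluid. The authors removed adapters, reads of low quality (phred under 18) and reads shorter than 18 bases with cutadapt, aligned the remaining reads to the bovine genome UMD 3.1 (Ensembl release 72), and assigned them to the bovine miRNAs of miRBase release 20 with miRDeep2. The submitters' processing notes also name CASAVA 1.8.0 and FastQC. The deposited values are raw read counts per mature miRNA and precursor, with no normalization and no filter. The groups and replicate numbers were read from the sample labels. A mature name with several precursors was represented by the entry with the highest total, since a read is counted at each precursor it matches. The authors used DESeq2, which served here as an alternative.

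A comparison was fitted on the counts of its own 6 libraries for miRNAs detected in either group (1 read or more in 2 or more of the 3 replicates), in R 4.3.3 with edgeR 4.0.16 (median-of-ratios factors, quasi-likelihood F test, two-sided, prior count 0.125), and p values were adjusted over all miRNAs tested. The interaction used all 12 libraries. Standard errors are the log2 fold change divided by the square root of F, an approximation, and the 95% intervals rest on them. The exact permutation tests of the ratio used SciPy 1.17.1. The fits were also run on simulated counts, with planted changes larger than the main estimates of the members and the same spread for all miRNAs. That run does not bear on changes of the size seen in the members. Libraries of a group differed by more than counting noise (chi-square per degree of freedom 10.2 to 128), so none was a repeat sequencing of another. This cannot show that they came from separate animals or pools. The 2 miRNAs, the lists of miRNAs of other cells and the tests were chosen with earlier results of these data known. Named by rule were the 2 members, the 5 miRNAs nearest to each in pattern (root mean square difference of centred log2(normalized count + 1) over 12 libraries, among miRNAs with a mean of at least 10 reads), and the lists.

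The labels give the same replicate numbers in each group and tie them to no animal. For SF and DF at day 7, deviations from the group means correlated by 0.13, 0.16 and 0.18 between libraries of the same number, across 186 miRNAs that are not independent. These numbers were therefore treated as a possible pairing, from the data alone, and a replicate block was run as an alternative. In the other comparisons at least 1 of the 3 correlations was below 0.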

Additional observations from a re-analysis of the deposited data

Results flagged for a closer look

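Both members were flagged because the difference between SF and DF was not the same on the 2 days. In the test of the interaction over all 12 libraries (edgeR), the log2 difference of SF against DF at day 7 less that at day 3 was -1.98 for bta-miR-143 (adjusted p = 0.000957) and -1.66 for bta-miR-145 (adjusted p = 0.00761). The means of bta-miR-143 at day 3 were 4088 normalized counts for SF and 2748 for DF, and at day 7 they were 3777 and 9997. Those of bta-miR-145 were 147 for SF and 90.0 for DF on the earlier day, then 139.8 and 272. The days came from different heifers and had different diameter limits for SF and DF. With 3 libraries per group, no group was large enough for the test for a library that lies apart.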

How the results depend on the processing

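Of 248 values for the members under other settings, 240 kept their direction and whether they were called. Settings with an FDR of 5% or a prior count of 2 reuse the p values of the main fit. The FDR threshold alone was not part of this count, and results that were not called lost it in some settings. Adjusted p reached 0.327 for bta-miR-143 at day 3 and 0.181 for bta-miR-145 at day 7 (edgeR). The rise in DF, the interaction and the difference of bta-miR-143 between SF and DF at day 7 were called in every setting. bta-miR-145 at day 7 was called with library size alone (-1.05), and leaving out 1 library gave -1.30 to -0.56. For SF at day 3 against DF at day 7, leaving out 1 library gave -1.49 to -0.94 for bta-miR-143 and -1.08 to -0.70 for bta-miR-145. Between the days in SF the sign was not settled: bta-miR-145 was at 0.000536 with TMM normalization and between -0.49 and 0.24 without 1 library, and bta-miR-143 between -0.322 and 0.0673. The log2 ratio also changed sign, within -0.27 to 0.16 for SF against DF at day 3 and within -0.21 to 0.18 for the days in SF, where the ratio of summed reads gave -0.0657. The cause was not tested.

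With the replicate number as a block, no call of a member changed. Between the days, which had different heifers, the block pairs no animals. The block also left few degrees of freedom in a fit of 6 libraries. For SF against DF at day 7 it lowered the adjusted p values, while the standard errors stayed close. The main fit had 0.00727 for bta-miR-143 and 0.0787 for bta-miR-145 (edgeR), with standard errors of 0.29 and 0.35. With the block the standard errors were 0.27 and 0.31. The lower adjusted p values of the block are therefore not read as stronger evidence. At day 7, where the numbers may pair the libraries and each of the 3 correlated best with its own number, the log2 fold changes were -1.30 (adjusted p = 1.41e-05, edgeR) for bta-miR-143 and -0.995 (adjusted p = 0.00553, edgeR) for bta-miR-145. With the block, the ratio differed by -0.30 between SF and DF at day 7, by 0.24 between the days in DF, by -0.07 at day 3 and by 0.02 in SF, where 3 pairs cannot give a p below 0.25.

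Counts over all miRNAs moved more. At day 3, 19 were called, against 11 with DESeq2, 12 with at least 10 reads in at least 3 libraries, 8 with all 12 libraries in one fit and 10 to 21 without 1 library (10 without SF replicate 1). In DF, 145 were called, against 92 with at least 10 reads. Between the days in SF, 2 were called, against 5 with DESeq2, 12 without a filter, 10 with all entries as listed, 7 with a block, 1 with all libraries in one fit, and 0 to 20 without 1 library. Without SF replicate 1 of day 7 there were 20, without replicate 3 of day 7 or of day 3 5 and 4, and without any other library 0. With at least 10 reads edgeR called 0 there, and 25 had an unadjusted p under 0.05. Library size alone shifted the median log2 fold change by -0.14 at day 7, -0.13 in DF and -0.14 in SF. Leaving out libraries was tried on the counts of the lists after the data had been seen. The stroma list then had 7 or 8 called in DF, 7 at day 7 and 6 to 8 in the interaction. Depth limits the heart and skeletal muscle list, whose members had few reads.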

Other observations

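The miRNAs of red blood cells were read in the same way. bta-miR-486 and bta-miR-451, which are abundant in erythrocytes, summed with bta-miR-144 to 737 to 1087 normalized counts in DF at day 3 and to 808 to 2322 at day 7. None of the 3 was called, while 40.3% of all miRNAs tested were (log2 fold change 0.65, adjusted p = 0.126 for bta-miR-486 and 0.84, adjusted p = 0.0569 for bta-miR-451, edgeR). In SF against DF at day 7, bta-miR-144 had too few reads to be tested. Both bta-miR-486 and bta-miR-451 were called lower in SF there (18.3% of all miRNAs were called so), with log2 fold changes of -1.56 (adjusted p = 0.0089, edgeR) and -1.76 (adjusted p = 0.00547, edgeR). SF replicate 1 of day 3 had the most of them outside DF at day 7, 1642 normalized counts.

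The epithelial miRNAs (bta-miR-141, bta-miR-200a, bta-miR-200b, bta-miR-200c and bta-miR-429) were near 0 in most libraries, with a sum of at most 4.46 normalized counts outside DF at day 3. In DF at day 3 the sum reached 21.5 in replicate 3 and was at most 4.89 in the other 2. bta-miR-141 was called lower in SF on that day, and the call was lost without any 1 of the SF libraries or without DF replicate 3.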
